A study of Mus musculus with 9 samples.

Results

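The genes described here encode the subunits of voltage-gated sodium channels that were read in ribosome-associated RNA of parvalbumin interneurons (PV INs) from hippocampal CA3/CA2. They are 9 genes, taken by name from the 37620 identifiers counted in each sample: the alpha subunits Scn1a, Scn2a1, Scn3a, Scn7a, Scn8a and Scn9a, and the beta subunits Scn2b, Scn3b and Scn4b. All 9 were among the 15069 genes tested, which are the genes that reached at least 1 CPM (reads of a gene scaled to the size of the library) in at least 1 sample. Scn3a and Scn3b are described as the early isoforms, and Scn1a, Scn8a, Scn2b and Scn4b as the late isoforms, after their known order of appearance in the brain.

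All mice carried PV-Cre; Rpl22 HA/HA, so that Cre, driven from the parvalbumin locus, places a hemagglutinin tag on ribosomal protein L22 in cells that express parvalbumin. At 2 months of age they received lentivirus in the dentate gyrus (DG), carrying either a non-target shRNA (shNT, 5 samples) or an shRNA against Ablim3 (shRNA, 4 samples), and CA2/CA3 was collected 2 weeks later. Each sample is a pool of 6 mice of both sexes, so the spread between samples is a spread between pools. Reads were 50 bases long, and between 18281719 and 34578837 reads were counted on genes per sample.

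A sodium channel has 1 large alpha subunit that forms the pore, opens when the membrane depolarizes and closes within moments through an inactivation gate. Beta subunits are small membrane proteins with an immunoglobulin fold that alter gating and hold the channel at the cell surface. PV INs fire at high rates and are known to lean on Scn1a, the gene mutated in most cases of Dravet syndrome, together with Scn8a. Scn2a1 is an alpha subunit found in axons of excitatory neurons, and Scn3a is prominent in the embryonic brain and declines after birth.

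The genes of 5 alpha subunits lie in 1 cluster on chromosome 2, and the beta subunit genes described here lie on chromosome 9. In the mm9 genome the order along chromosome 2 was Scn3a (chr2:65295175-65405684, minus strand), Scn2a1 (chr2:65458914-65605504, plus strand), Scn1a (chr2:66108838-66278897, minus strand), Scn9a (chr2:66318137-66473009, minus strand) and Scn7a (chr2:66511482-66622971, minus strand), over 1328 kb in all. Scn8a lies apart (chr15:100785829-100876360, plus strand). Scn3b (chr9:40076801-40099203, plus strand) is 4827 kb from Scn2b (chr9:44925959-44938153, plus strand), which ends 8.37 kb before Scn4b (chr9:44946520-44962235, plus strand). A short separate gene model, which also carries the name Scn8a, lies upstream on chromosome 15 and is given apart from it.

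The alpha subunits are close relatives, and part of their sequence is shared. Of all 50-base windows in the annotated transcripts, 5.33% of those of Scn1a, 8.14% of Scn2a1, 6.41% of Scn3a, 5.14% of Scn9a and 0.0536% of Scn8a also occurred in another member, whereas no window of Scn7a or of the beta subunits did. The authors counted reads that aligned to 1 place only, so a read from such a window would be left out of the counts.

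The early and late forms of a channel can also differ inside a single gene through alternative exons. Such exons count toward the same gene here, so adult against developmental use is compared between genes and not between exons.

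Several libraries stood apart before any gene was compared. The share of uniquely aligned reads that fell outside exons was 18.6% in shNT replicate 2, 19.8% in shRNA replicate 1 and 27.2% in shRNA replicate 4, while the remaining 6 samples had 9.76% to 12.5%. Nuclear noncoding RNAs (Malat1, Meg3, Miat, Snhg11 and Rian) were high in the same libraries, with summed levels of 14909 CPM in shNT replicate 2, 13565 CPM in shRNA replicate 1 and 18804 CPM in shRNA replicate 4, while the rest had 1655 to 3826 CPM. Although every pool is described as holding both sexes, shNT replicate 1 held 3 counts of Xist (324 to 6194 in the 7 pools that held transcripts of both sexes), and shNT replicate 5 held 4 counts of Ddx3y (609 to 1364 in those 7). Sample names fall into a larger set (shNT replicates 1 to 3 and shRNA replicates 1 to 3) and a smaller one (shNT replicates 4 and 5 and shRNA replicate 4), and whether the sets are batches is not given in the sources used here. Ablim3 itself was targeted in the DG and not in the PV INs sequenced, and its 16.9 ± 5.16 CPM (SD, n = 5) in shNT against 18.5 ± 3.42 CPM (SD, n = 4) in shRNA samples is no check of the knockdown.

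Among the 9 genes, the late subunits had the highest transcript levels per length in the shNT samples. To compare genes, CPM was divided by the exon length of each gene, and in the shNT samples Scn2b stood at 52.2 ± 8.86 CPM per kb (SD, n = 5), Scn1a at 29.1 ± 5.54, Scn8a at 20.4 ± 4.11 and Scn4b at 14.4 ± 2.56. The early beta subunit Scn3b followed at 6.51 ± 2.38 CPM per kb, and Scn2a1 at 5.50 ± 1.71. Scn3a reached 0.652 ± 0.320 CPM per kb, and Scn9a and Scn7a were lowest at 0.153 ± 0.0403 and 0.131 ± 0.0499 CPM per kb. Within a sample this order held in 5 of 5 shNT samples for every neighbouring pair except Scn9a and Scn7a, which kept it in 3 of 5. Across samples, the ranges of Scn1a and Scn8a, of Scn8a and Scn4b, of Scn3b and Scn2a1 and of Scn9a and Scn7a overlapped. Of these pairs only Scn9a and Scn7a changed order within a sample. In the shRNA samples Scn3b (14.5 ± 2.35 CPM per kb, n = 4) and Scn2a1 (11.6 ± 1.18) had higher means than Scn4b (10.99 ± 3.91), but the ranges of these 3 overlapped. Scn2a1 exceeded Scn4b in only 1 of 4 shRNA samples, replicate 4, at 11.3 against 5.30 CPM per kb.

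The comparison of shRNA with shNT asks how the channel transcripts in this ribosome-associated RNA stood after an shRNA against Ablim3 in the DG. The paper uses that shRNA to raise mossy fiber input to PV INs, which the counts do not measure. Scn2a1 and Scn3a rose, and none of the 9 genes passed the test for a lower level. A gene was called when its false discovery rate (FDR, Benjamini-Hochberg over all genes tested) was under 0.05 and its change at least 1.5-fold in edgeR's quasi-likelihood test. By that rule 1.74% of all genes tested were called higher and 0.0133% lower, against 2 of 9 and 0 of 9 members. The median log2 fold change of the members was 1.07, against 0.11 over all genes tested. In Scn2a1, Scn3a, Scn3b and Scn7a the shRNA samples lay wholly above the shNT samples, as in 8.97% of all genes, and in Scn2b they lay wholly below, as in 6.68% of all genes. At an unadjusted p under 0.05 the lower members came to 1, Scn2b, and 13.4% of all genes were lower at that level. In bulk RNA of this kind a change in the number of cells that contribute and a change in RNA per cell cannot be told apart.

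**Figure D1:**
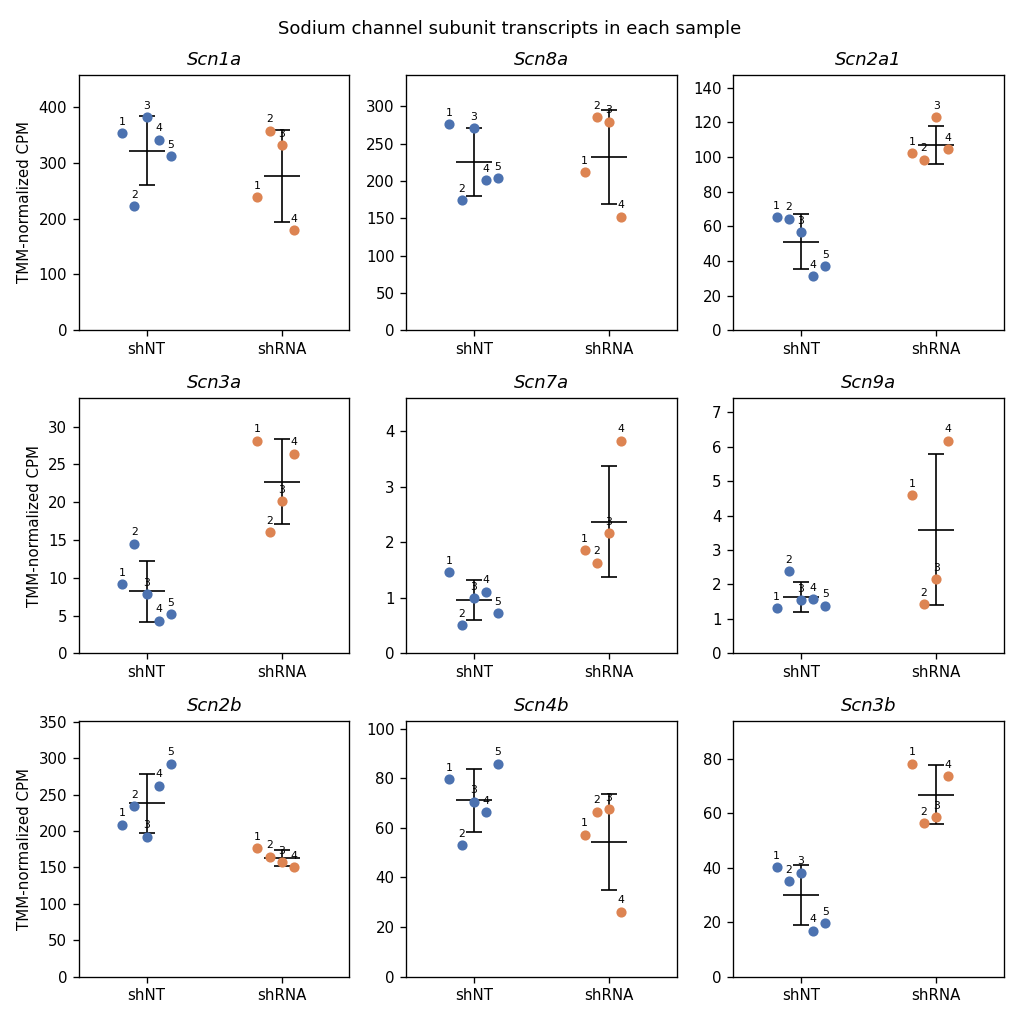
Levels of the 9 subunit transcripts in each sample, in TMM-normalized CPM on axes that start at 0, with the sample's replicate number beside its point and the mean ± SD of each group in black (shNT n = 5, shRNA n = 4). Scn2a1, Scn3a, Scn7a and Scn3b show no overlap between groups with shRNA above, Scn2b shows none with shRNA below, and the groups overlap for Scn1a, Scn8a, Scn9a and Scn4b.

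Scn1a, the pore of the adult PV IN channel, had 353, 222, 382, 342 and 312 CPM in the shNT samples in order of replicate number, and 239, 358, 332 and 179 CPM in the shRNA samples in the same order. The groups overlapped, and the lowest samples in each group were the 3 libraries with many reads outside exons. Its log2 fold change was -0.22 ± 0.23 (SE, FDR = 0.509, edgeR quasi-likelihood test). Without those 3 libraries, which were picked out only after the values were known, it was -0.038 ± 0.13 (SE).

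Scn8a, the alpha subunit that is concentrated at the axon initial segment and nodes of mature neurons, had 276, 174, 271, 201 and 204 CPM with shNT and 212, 285, 280 and 152 CPM with shRNA. The groups overlapped, shRNA replicate 4 and shNT replicate 2 being lowest. The log2 fold change of Scn8a was 0.043 ± 0.22 (SE, FDR = 0.902, edgeR quasi-likelihood test), and its sign turned in several of the alternatives. The second gene model under the name Scn8a, of 1072 exon bases, ran from 13.3 to 23.7 CPM with shNT and from 7.89 to 15.6 CPM with shRNA, with a log2 fold change of -0.31 ± 0.24 (SE, FDR = 0.360, edgeR quasi-likelihood test).

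Scn2a1 had 65.4, 64.4, 56.8, 31.1 and 37.1 CPM with shNT and 102, 98.5, 123 and 104 CPM with shRNA. Every shRNA sample was above the highest shNT sample, and shNT replicates 4 and 5 were the lowest. Its level rose 2.10-fold, with a log2 fold change of 1.07 ± 0.22 (SE, FDR = 0.0424, edgeR quasi-likelihood test).

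Scn3a, the early alpha subunit, was a low-abundance transcript with 9.14, 14.5, 7.86, 4.34 and 5.14 CPM in the shNT samples. The shRNA samples had 28.1, 16.03, 20.1 and 26.4 CPM, the 2 highest of which came from the libraries with many reads outside exons. The highest shNT value, of replicate 2, also came from such a library, and stayed under the lowest shRNA value. Scn3a rose 2.77-fold, with a log2 fold change of 1.47 ± 0.32 (SE, FDR = 0.0485, edgeR quasi-likelihood test), and between 86 and 847 reads per sample stand behind these values.

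Both calls lay close to the threshold. When each sample was left out in turn, Scn2a1 and Scn3a were each called in 3 of 9 fits. They lost their call when shNT replicate 3, 4 or 5 or shRNA replicate 1, 3 or 4 was the one removed, with FDR up to 0.169. No gene at all was called in 5 of those fits, and the log2 fold change stayed between 0.86 and 1.18 for Scn2a1 and between 1.22 and 1.77 for Scn3a. Within the larger set of sample names the log2 fold changes were 0.76 ± 0.15 (SE, FDR = 0.219) for Scn2a1 and 0.99 ± 0.30 (SE, FDR = 0.399) for Scn3a. In that set no gene at all was called. The smaller set holds 1 shRNA sample, so it gives no value of its own. Without shNT replicates 1 and 5, the pools that lack transcripts of 1 sex, Scn2a1 was at 0.97 and Scn3a at 1.23, both with FDR = 0.157 and no gene called.

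Scn7a and Scn9a were barely detected in these samples. Scn7a encodes a channel relative that senses extracellular sodium and is known from glia and a few groups of neurons, and it had 1.46, 0.505, 0.995, 1.11 and 0.721 CPM with shNT and 1.86, 1.63, 2.16 and 3.83 CPM with shRNA. The groups did not overlap, but between 11 and 85 reads stand behind each value, and the log2 fold change of 1.30 ± 0.38 (SE) did not pass the test (FDR = 0.0655, edgeR quasi-likelihood test). Scn9a, best known from peripheral sensory neurons, ran from 1.32 to 2.39 CPM with shNT and had 4.59, 1.42, 2.16 and 6.18 CPM with shRNA. Its groups overlapped, and both high values were those of shRNA replicates 1 and 4, which have many reads outside exons. The log2 fold change of Scn9a was 1.13 ± 0.41 (SE, FDR = 0.0906, edgeR quasi-likelihood test), and without the 3 libraries with the most such reads it was 0.26 ± 0.29 (SE). Of its exon bases, 180 also belong to the gene model Gm13629, which unstranded counting cannot separate from it.

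Among the beta subunits, the early one stood higher and the late Scn2b lower with shRNA, but none passed the test, and Scn4b was within its spread. Scn3b had 40.2, 35.2, 38.1, 16.8 and 19.5 CPM with shNT and 78.2, 56.4, 58.6 and 73.7 CPM with shRNA. The groups did not overlap, and the log2 fold change of 1.15 ± 0.26 (SE) missed the threshold by little (FDR = 0.0503, edgeR quasi-likelihood test). An FDR between 0.05 and 0.1 with a change of at least 1.5-fold upward was common in these data, at 10.9% of all genes, and Scn3b, Scn7a and Scn9a were among them.

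Scn2b, a late beta subunit that is joined to the alpha subunit by a disulfide bond, had 209, 234, 192, 262 and 293 CPM with shNT and 177, 165, 158 and 151 CPM with shRNA. All shRNA samples were below all shNT samples, and the shRNA samples lay close together. The log2 fold change was -0.55 ± 0.16 (SE, FDR = 0.0651, edgeR quasi-likelihood test), which is a 1.46-fold lower level and short of the 1.5-fold minimum.

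Scn4b, the late beta subunit whose cytoplasmic tail supports resurgent current in fast-firing cells, had 79.5, 52.9, 70.6, 66.4 and 85.8 CPM with shNT and 57.2, 66.5, 67.4 and 26.2 CPM with shRNA. The groups overlapped, and shRNA replicate 4 was lowest. Its log2 fold change was -0.39 ± 0.25 (SE, FDR = 0.289, edgeR quasi-likelihood test). It was -0.17 ± 0.15 (SE) without shRNA replicate 4 and -0.0066 ± 0.17 (SE) with a covariate for reads outside exons.

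The test used decides how many of these genes count as changed. With edgeR's likelihood ratio test, which called 11.2% of all genes higher, 4 members were called higher: Scn2a1 (FDR = 5.67e-04), Scn3a (FDR = 0.00123), Scn3b (FDR = 0.00145) and Scn7a (FDR = 0.0193). The same 4 were called higher by DESeq2 and by limma voom with sample quality weights, which called 10.2% and 15.3% of all genes higher. The likelihood ratio test called 3.6% of all genes lower and no member, while DESeq2 (FDR = 0.00992, with 5.53% of all genes called lower) and limma voom (FDR = 0.00260, with 4.1%) called Scn2b lower.

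The comparison was also made with gene length taken into account, since the exons of the subunits add up to between 4562 bases (Scn2b) and 12579 bases (Scn3a). For this, the trend over exon length of each library's log2 levels, taken relative to the mean of each gene, was removed. That shifted the median log2 fold change of all genes by -0.12, and no gene was called by edgeR's quasi-likelihood test. The log2 fold change was then 0.68 ± 0.17 (SE, FDR = 0.0955) for Scn2a1, 0.99 ± 0.27 (SE, FDR = 0.0975) for Scn3a and 0.98 ± 0.24 (SE, FDR = 0.0948) for Scn3b. Under the same correction it was -0.69 ± 0.27 (SE, FDR = 0.134) for Scn1a, -0.41 ± 0.23 (SE, FDR = 0.252) for Scn8a, -0.75 ± 0.19 (SE, FDR = 0.0955) for Scn2b and -0.59 ± 0.27 (SE, FDR = 0.172) for Scn4b. With the same correction edgeR's likelihood ratio test, a combination added after seeing the data, called 5.55% of all genes higher and 2.32% lower. Among them were Scn2a1 (FDR = 0.0139), Scn3a (FDR = 0.0177) and Scn3b (FDR = 0.00748), higher, and Scn2b (FDR = 0.0108), lower. The correction lowered these alpha subunits whatever their class, Scn1a from -0.22, Scn8a from 0.043, Scn2a1 from 1.07 and Scn3a from 1.47. The beta subunits moved less, Scn3b from 1.15, Scn2b from -0.55 and Scn4b from -0.39. After it, the early subunits and Scn2a1 had positive values and the 4 late subunits negative ones. Those values include the shift by gene length, and Scn8a turned sign with it.

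**Figure D2:**
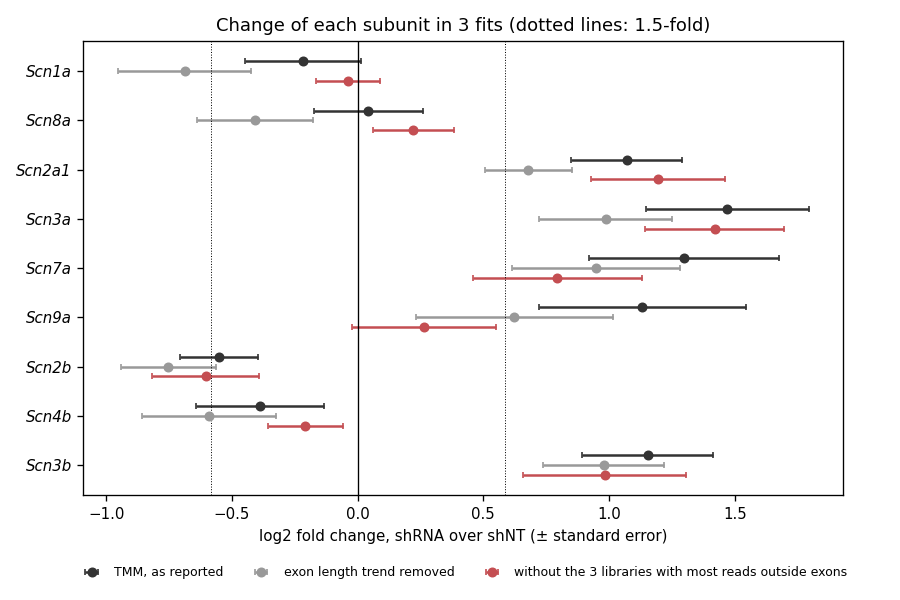
Log2 fold change of each subunit, shRNA over shNT, with its standard error, in the fit reported (black), with the trend over exon length removed (grey) and without the 3 libraries with the most reads outside exons (red). Dotted lines mark 1.5-fold; Scn2a1, Scn3a and Scn3b lie between 0.68 and 1.47 in all 3 fits, whereas Scn1a and Scn8a lie between -0.69 and 0.22.

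A ratio of genes within a sample does not depend on how libraries are scaled to each other. The log2 ratio of Scn3a to Scn1a, early over late pore, was -5.26, -3.93, -5.59, -6.28 and -5.90 in shNT replicates 1 to 5. In shRNA replicates 1 to 4 it was -3.08, -4.48, -4.04 and -2.76. The shRNA samples stood higher except that shNT replicate 2, with its many reads outside exons, lay above shRNA replicates 2 and 3. The mean was -5.39 ± 0.90 (SD, n = 5) with shNT and -3.59 ± 0.80 (SD, n = 4) with shRNA, a difference of 1.80 or 3.49-fold (p = 0.0317, exact two-sided permutation test over 126 splits). Scn3a alone lay wholly higher with shRNA, at a log2 fold change of 1.47 against -0.22 for Scn1a. The ratio thus largely restates the rise of Scn3a, and its p-value is no separate result. Within the larger set of sample names the difference was 1.06 (p = 0.30, exact permutation test, in a design of 3 against 3 that cannot go below 0.10). Without the 3 libraries with the most reads outside exons it was 1.501 (p = 0.0667, exact permutation test, the smallest that 4 against 2 allows), and without the 2 libraries that lack transcripts of 1 sex it was 1.68 (p = 0.143, exact permutation test). Over the 9 sets that omit 1 sample the difference lay between 1.53 and 2.17, with p = 0.0286 without shNT replicate 2 and p between 0.0536 and 0.0893 without any other sample (exact permutation tests).

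The other ratios are given as a description. The log2 ratio of Scn2a1 to Scn1a ran from -3.46 to -1.78 with shNT and from -1.86 to -0.78 with shRNA, with shNT replicate 2 just above shRNA replicate 2. Scn3b to Scn2b ran from -3.96 to -2.33 with shNT and from -1.55 to -1.03 with shRNA, and these groups did not overlap. This adds no separate result, since Scn3b alone lay wholly higher and Scn2b alone wholly lower with shRNA. Scn3b to Scn4b ran from -2.13 to -0.59 with shNT and from -0.24 to 1.49 with shRNA, again without overlap, although both values at the top came from shRNA replicates 1 and 4. The most even of all was Scn8a to Scn1a, both late and of nearly equal exon length (11066 and 11079 bases), which was -0.52 ± 0.18 (SD, n = 5) with shNT and -0.25 ± 0.063 (SD, n = 4) with shRNA. Scn8a to Scn1a stayed between -0.33 and -0.18 in the 4 shRNA samples and between -0.77 and -0.35 in the shNT samples. The groups thus did not overlap, but the gap was narrow, and each of these genes alone overlapped between groups. The share of all gene pairs whose ratio separates the groups was not computed.

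**Figure D3:**
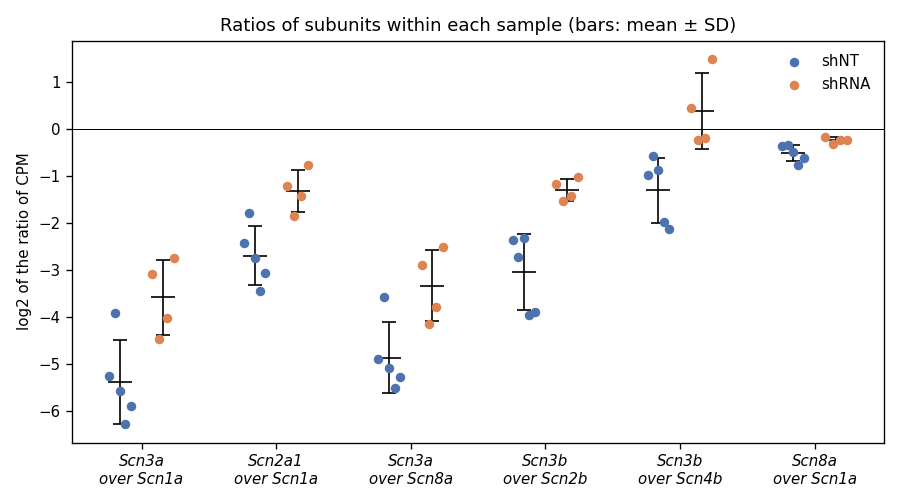
Log2 ratio of 2 subunits within each sample, blue for shNT (n = 5) and orange for shRNA (n = 4), with the mean ± SD of each group in black. Scn3b over Scn2b, Scn3b over Scn4b and Scn8a over Scn1a separate the groups fully, the last by a narrow gap. For Scn3b over Scn2b this follows from the levels of each gene alone. In the ratios with Scn3a or Scn2a1 on top, shNT replicate 2 reaches into the shRNA range.

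As shares of the summed alpha subunit level per kb of exon, Scn1a made up 52.0% ± 5.00 (SD, n = 5) with shNT and 41.1% ± 4.07 (SD, n = 4) with shRNA. Scn2a1 made up 10.01% ± 3.62 and 19.9% ± 4.26, and Scn3a 1.22% ± 0.793 and 3.23% ± 1.41. Shares are parts of a fixed whole, so larger shares of Scn2a1 and Scn3a lower that of Scn1a by themselves. The Scn1a share overlapped between groups, from 45.3% upward with shNT and up to 45.9% with shRNA, and its level was not called changed. The share of Scn8a was nearly level, at 36.3% ± 1.56 with shNT and 34.6% ± 2.51 with shRNA, and Scn7a and Scn9a summed took less than Scn3a in every sample. The summed level itself was 55.9 ± 9.36 CPM per kb with shNT and 60.0 ± 12.8 CPM per kb with shRNA. In every sample Scn1a and Scn8a were the 2 largest, so the adult pores were the bulk of the alpha subunit transcripts in both groups.

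**Figure D4:**
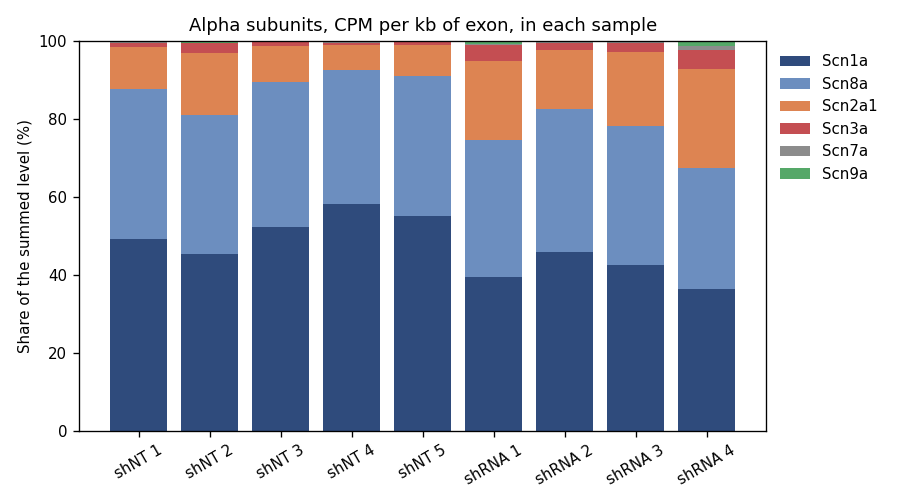
Share of each alpha subunit in the summed level of the 6 alpha subunits, in CPM per kb of exon, 1 bar per sample. Scn1a spans 45.3% to 58.2% in the shNT samples and 36.4% to 45.9% in the shRNA samples, Scn2a1 fills 15.1% to 25.4% of the shRNA bars, and the Scn3a band is widest in shRNA replicates 1 and 4.

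The levels of Scn1a and Scn4b moved with the share of reads outside exons. Scn1a was lowest at 179 CPM in shRNA replicate 4, then at 222 CPM in shNT replicate 2 and at 239 CPM in shRNA replicate 1, which are the 3 libraries with the most such reads. The same 3 libraries were lowest for Scn4b. They were also lowest for the summed PV IN markers described below, at 2548, 4403 and 4442 CPM in the same order. Reads outside exons and PV IN marker levels changed together, so their parts in these values cannot be told apart. Scn3a had its highest shNT value and its 2 highest shRNA values in these 3 libraries. Scn2b did not follow this order, since shNT replicate 2 had 234 CPM, a middle value of its group. With a covariate for reads outside exons, no gene was called, and the log2 fold change was 1.02 ± 0.24 (SE, FDR = 0.0847) for Scn2a1, 1.10 ± 0.28 (SE, FDR = 0.0925) for Scn3a, 0.16 ± 0.12 (SE, FDR = 0.361) for Scn1a and -0.54 ± 0.16 (SE, FDR = 0.102) for Scn2b. Without the 3 libraries Scn2a1 was at 1.19 ± 0.27 (SE, FDR = 0.129), Scn3a at 1.42 ± 0.28 (SE, FDR = 0.127) and Scn3b at 0.98 ± 0.33 (SE, FDR = 0.209), with no gene called in a fit of 4 against 2 samples. The part of reads outside exons in the results was otherwise not tested.

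**Figure D5:**
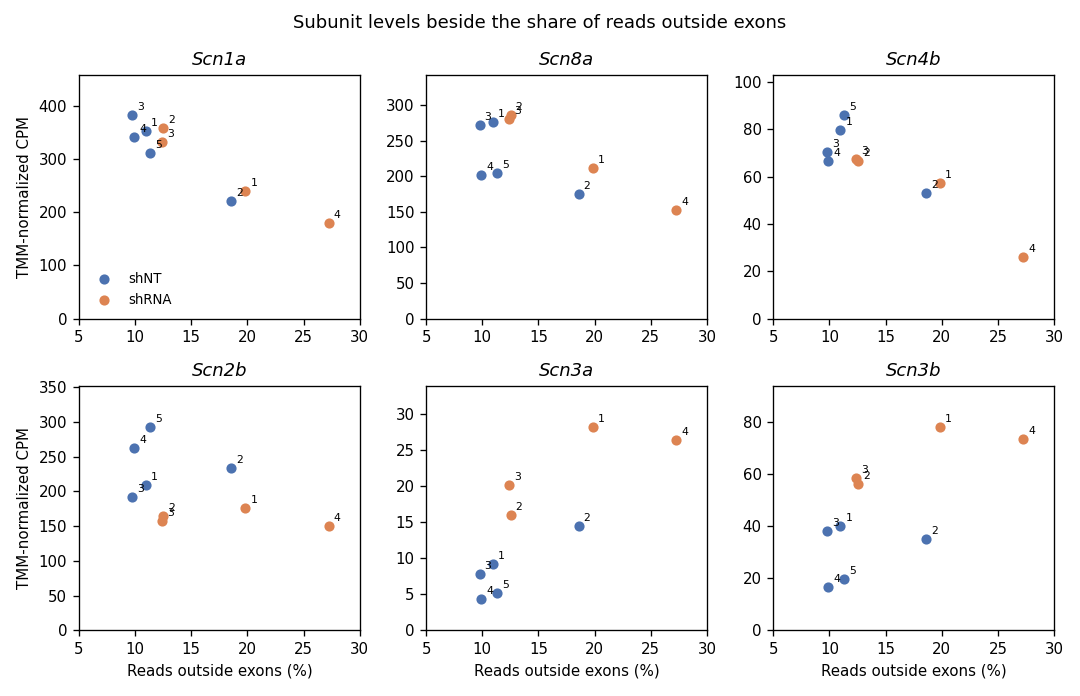
Level of 6 subunits in TMM-normalized CPM (y axis, from 0) against the share of uniquely aligned reads outside exons in percent (x axis), 1 point per sample with its replicate number, blue for shNT and orange for shRNA. Scn1a and Scn4b are lowest in shNT replicate 2, shRNA replicate 1 and shRNA replicate 4 at 18.6% to 27.2%, whereas at 9.76% to 12.5% Scn3a and Scn3b are higher in the 2 shRNA samples than in the 4 shNT samples.

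Transcripts of other cells moved beside these genes, and Scn2a1, Scn3a and Scn3b are also expressed by cells other than PV INs. Pyramidal neuron markers (6 genes, among them Slc17a7, Neurod6 and Camk2a) summed to between 555 and 1406 CPM with shNT and between 1461 and 1834 CPM with shRNA, with 1 of 6 called higher, Grik4, and 4 of 6 by the likelihood ratio test. Their lowest sums were those of shNT replicates 4 and 5, which were also the lowest for Scn2a1, Scn3a and Scn3b. Oligodendrocyte precursor markers (5 genes) summed to between 38.3 and 68.1 CPM with shNT and between 76.8 and 111 CPM with shRNA, with 3 of 5 called higher (Pdgfra, Olig2 and Gpr17) and 5 of 5 by the likelihood ratio test. DG granule cell markers (4 genes) summed to between 25.1 and 60.0 CPM and between 57.2 and 90.9 CPM, with 0 of 4 called by edgeR's quasi-likelihood test and 1 by its likelihood ratio test. Of all genes, 1.74% were called higher by the quasi-likelihood test and 11.2% by the likelihood ratio test. No marker of these lists was at 0 throughout.

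The PV IN list stood the other way. Its 8 markers were detected in every sample and all had higher shNT means. They summed to between 4403 and 7246 CPM with shNT and between 2548 and 6244 CPM with shRNA. The 3 libraries with the most reads outside exons had the lowest sums, shRNA replicate 4 being lowest of all. None of the 8 was called by edgeR's quasi-likelihood test, against 1 lower by its likelihood ratio test, which called 3.6% of all genes lower. Pvalb itself, the calcium buffer that names these cells, averaged 998 ± 287 CPM (SD, n = 5) in shNT and 526 ± 163 CPM (SD, n = 4) in shRNA samples, with a log2 fold change of -0.92 ± 0.28 (SE, FDR = 0.0678). The summed astrocyte and endothelial markers were highest in shRNA replicate 4, at 3877 and 495 CPM, against at most 1167 and 228 CPM in the other samples. Of the 6 astrocyte markers 0 were called higher by the quasi-likelihood test and 5 by the likelihood ratio test, which called 11.2% of all genes higher. Aldh1l1 lay wholly higher with shRNA, as did 8.97% of all genes, at 20.6, 24.7, 31.2 and 70.5 CPM against at most 20.2 CPM with shNT. Oligodendrocyte markers summed to between 680 and 2255 CPM with shNT and between 1302 and 2816 CPM with shRNA, microglial markers to between 41.3 and 92.7 CPM and between 73.0 and 83.9 CPM, and markers of other interneurons to between 521 and 904 CPM and between 281 and 687 CPM. The part of other cells in the subunit levels was not tested.

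Other sodium channel genes help to place the members. Nalcn, the sodium leak channel, did not pass the test with a log2 fold change of 0.36 ± 0.21 (SE, FDR = 0.233, edgeR quasi-likelihood test). Scn4a of muscle had 4 reads over all 9 samples and Scn10a of sensory neurons 2, and Scn11a had none.

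Of 14 genes that anchor, traffic or modify sodium channels, 2 were called higher and 0 lower by edgeR's quasi-likelihood test (0 lower also by its likelihood ratio test). Over all genes that test called 1.74% higher and 0.0133% lower. The median log2 fold change of the 14 was 0.18 against 0.11 for all genes. Nedd4l, a ubiquitin ligase that removes sodium channels from the membrane, had 48.1, 39.8, 46.3, 27.9 and 28.7 CPM with shNT and 77.3, 72.5, 95.8 and 86.9 CPM with shRNA. Its groups did not overlap, and its log2 fold change was 1.12 ± 0.19 (SE, FDR = 0.0403). Sptbn4, the spectrin under the axon initial segment, had 269, 138, 145, 103 and 131 CPM with shNT and 390, 319, 467 and 277 CPM with shRNA. It was called at a log2 fold change of 1.21 ± 0.27 (SE, FDR = 0.0497), and its groups did not overlap either. Ank3, whose product ankyrin G binds the channels there, averaged 173 ± 101 CPM (SD) in the 5 shNT and 425 ± 79.1 CPM (SD) in the 4 shRNA samples and did not pass (log2 fold change 1.30 ± 0.38 SE, FDR = 0.0655). Nedd4l, Sptbn4 and Ank3 all lay wholly higher with shRNA, as did 8.97% of all genes.

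The other partners did not pass. The intracellular fibroblast growth factors that bind the channel tail gave log2 fold changes of -0.45 for Fgf11, -0.48 for Fgf12, -0.050 for Fgf13 and 0.45 for Fgf14, with FDR from 0.126 to 0.842. Bace1, the protease that cuts beta subunits, stood at -0.066 ± 0.25 (SE, FDR = 0.864) and the adhesion protein Nrcam at 0.59 ± 0.30 (SE, FDR = 0.179). With the exon length trend removed Nedd4l was at 0.72 ± 0.13 (SE, FDR = 0.0851) and Sptbn4 at 0.82 ± 0.23 (SE, FDR = 0.0990), and neither was called when shNT replicate 3, 4 or 5 was left out, nor when shRNA replicate 1 or 3 was. Sptbn4 was also lost without shNT replicate 2 or shRNA replicate 2.

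Of 9 regulators of neuronal transcripts (Rbfox1, Rbfox2, Rbfox3, Nova1, Nova2, Celf4, Srrm4, Pum2 and Rest), none was called by edgeR's quasi-likelihood test or by its likelihood ratio test. Their median log2 fold change was 0.18. Nova2 and Srrm4, both splicing factors of neurons, had shRNA samples that all lay below their shNT samples, as in 6.68% of all genes. Their log2 fold changes were -0.27 ± 0.13 (SE, FDR = 0.163) and -0.34 ± 0.13 (SE, FDR = 0.103). Rest, a repressor that silences neuronal genes outside neurons, averaged 5.11 ± 1.46 CPM (SD) in the 5 shNT and 8.60 ± 6.86 CPM (SD) in the 4 shRNA samples (FDR = 0.231). Its higher shRNA mean came from replicate 4, at 18.7 CPM. Replicates 1 to 3 had 5.95, 3.45 and 6.28 CPM, within the shNT range of 3.42 to 7.11 CPM.

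The genes whose log2 CPM ran most like each subunit over the 9 samples were sought among 9487 other genes that averaged at least 10 CPM. The closest to Scn1a were Mtap4, Mmgt1 and Usp46, each with r = 0.99. The closest to Scn3a were Adcy9, Nav1 and Raver2, each with r = 0.99, and Raver2 was called higher (log2 fold change 1.21, FDR = 0.0414). The closest to Scn4b were Rbfox1, Cd99l2 and E130309D14Rik, each with r = 0.99. These are descriptions over 9 points that share their libraries, and with them their depth and reads outside exons.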

How the data were processed

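RNA sequencing was done on ribosome-associated RNA of PV INs. The authors aligned reads to mm9 with STAR (version not given in the sources used here), assigned reads that aligned to 1 place to genes with HTSeq 0.6.0 without strand, and deposited raw counts per sample. Gene names (37205 of 37620 identifiers), exon lengths and transcript sequences came from GENCODE of the same build. The 5 rows without a gene were left out of library sizes; reads outside exons were 9.76% to 27.2% of reads on genes or outside exons. The 15069 genes that reached 1 CPM in any sample were normalized by TMM and tested with edgeR 4.0.16 (quasi-likelihood, R 4.3.3), group being the only term; log2 levels used a prior count of 2. Calls required FDR under 0.05 and 1.5-fold. DESeq2 1.42.0, limma 3.58.1, other scalings, filters and sample sets were alternatives. The scripts were tested on simulated counts. The 9 members, the gene lists and the naming rule (all members, list genes that pass and up to 6 others, Pvalb, the 3 genes closest to Scn1a, Scn3a and Scn4b) were chosen with earlier results of these data known. Levels rest on 18281719 to 34578837 counted reads, so counting error is small except for Scn7a and Scn9a. P-values measure the spread between pools. Some genes of these lists and some sequences are not reported here.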

Additional observations from a re-analysis of the deposited data

Results flagged for a closer look

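Within a group, 42 sets of values were searched for a sample far from the rest (9 subunit levels, 6 ratios and 6 alpha subunit shares in each group), and 3 held one, against about 2.1 that chance alone would give at 1 in 20. All 3 were shNT replicate 2, which had 18.6% of its reads outside exons. Its log2 CPM of Scn9a was 1.30, against 0.48 to 0.72 in the other shNT samples. Its share of Scn3a among alpha subunits was 2.61%, against 0.65% to 1.12%. Its share of Scn9a was 0.503%, against 0.189% to 0.275%. Without this sample Scn3a and Scn2a1 were still called higher.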

How the results depend on the processing

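The count of 2 members called higher became 4 with edgeR's likelihood ratio and exact tests, DESeq2 and limma voom, 3 without a filter on low counts, with 1 CPM in at least 4 samples, with name set as a term and with the length-corrected likelihood ratio test (added after seeing the data), 1 with DESeq2 size factors in edgeR, and 0 with library size only, upper quartile scaling, the replicate block, the larger name set alone, exon length trend removed, a covariate for reads outside exons, and, both added after seeing the data, without the 3 libraries with the most reads outside exons or the 2 that lack transcripts of 1 sex. No gene at all was called under the settings that gave 0, except the replicate block, which called 34 genes higher. Under the settings that gave 1 to 4 members, all genes called higher ran from 199 (DESeq2 size factors) to 2301 (limma voom). The fit reported called 262. The count of members ran from 0 to 4 with each sample left out, and that of all genes called higher from 0 to 1007. The count of 0 called lower became 1 (Scn2b) with DESeq2, limma voom and the length-corrected likelihood ratio test, and ran from 0 to 1 with each sample left out. The 2 channel partners became 5 with limma voom, 1 with DESeq2 size factors, and 0 under the same 8 settings that left 0 members, and ran from 0 to 3 with each sample left out. The Scn3a to Scn1a difference stayed positive, at 1.68 with the replicate block (p = 0.25, exact sign flips), 1.06 in the larger name set, 1.501 without the 3 libraries and 1.68 without the 2, each past no threshold, and from 1.53 to 2.17 with each sample left out. The log2 fold change of Scn1a turned to 0.16 with the covariate. That of Scn8a turned to -0.099 with the block, -0.049 with name set as a term, -0.41 with either length-corrected test, and ran from -0.13 to 0.19 with each sample left out, negative in 5 of 9. Scn2a1, Scn3a, Scn3b, Scn7a, Scn9a, Scn2b and Scn4b kept their direction in all 26 alternatives, Scn4b only nominally at -0.0066 with the covariate. The causes were not tested. Replicate numbers paired no samples: same-numbered deviations correlated at -0.27, -0.64, 0.49 and -0.18.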
